A study of Mus musculus with 48 samples.

Results

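Among the genes of a glial panel, 12 encode the lysosome's proton pump, its membrane glycoproteins or progranulin, and their transcripts were compared in hippocampal microglia of mouse pups raised under stress or under control conditions. The set was chosen by name from the 478 genes listed, with earlier results of these data known. It holds Lamp1, Lamp2, Cd68, Grn and every gene whose symbol begins with Atp6v, which gave 8 subunits of the vacuolar ATPase (V-ATPase). The animals were BALB/c pups (strain Balbc/Byj in the labels) of both sexes aged 17 days, and about 60000 microglia per animal were sorted from the hippocampus. There were 16 pups in the LB group, 16 in the UPS group and 16 in the CTL group, 8 of each sex per group, with rearing as the only labelled difference between the groups. As background, LB is rearing with limited bedding and nesting material, UPS is unpredictable postnatal stress, and CTL is the control rearing. Each set of 8 pups was drawn from 4 to 5 litters, per the labels' protocols, which makes some of them littermates, and the p-values and intervals below treat them as independent. Transcripts were counted with nCounter barcoded probes in 4 batches of 12 libraries, each batch with 2 libraries of every group and sex.

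The lysosome breaks down what microglia engulf, including dying cells, debris and synaptic material, and its enzymes need an acid interior. The V-ATPase supplies the acid: its cytosolic V1 sector hydrolyses ATP and drives rotation of the membrane-embedded V0 sector, which moves protons inward. Lamp1 and Lamp2 are the heavily glycosylated proteins that line the inner face of the lysosome membrane, Cd68 is their relative in macrophages and a common histological marker of phagocytic microglia, and Grn encodes progranulin, a secreted protein that is delivered to lysosomes and cleaved there into granulins. In humans, loss of progranulin causes neurodegeneration with lysosomal storage. V1 subunits are peripheral proteins and progranulin is soluble, so the set is not limited to membrane proteins.

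None of the 12 genes passed an adjusted p of 0.05 between any pair of rearing groups, and for 11 of them the 95% intervals bounded any difference at 1.15-fold in either direction. Ratios and p-values come from the authors' deposited tables, 1 for each pair of groups, and p was adjusted over all 478 genes of a table (Benjamini-Hochberg). Which group is the numerator is not stated, so a sign is printed as deposited and is not read as higher or lower in a named group. Values per library were not used here, and neither a gene's level nor a per-animal count can be given. Between LB and CTL 0 of the 12 passed, where 0% of all genes did. Between UPS and CTL 0 of the 12 passed against 4.81% of all genes, and between UPS and LB 0 of the 12 against 6.28%. At an unadjusted p below 0.05 the counts were 1 of 12 between LB and CTL (11.7% of all genes), 1 of 12 between UPS and CTL (16.3%) and 0 of 12 between UPS and LB (18.8%). In a lysate of sorted cells, fewer cells of one kind and less RNA per cell cannot be told apart.

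The 3 tables gave 36 ratios for the 12 genes, of which 34 were below 0.1 in size on the log2 scale. The authors' deposited tables held 6 positive ratios among the 12 between LB and CTL, 5 between UPS and CTL and 6 between UPS and LB, beside 252, 233 and 210 of 478 genes. The median log2 ratio of the 12 was 0.00039 between LB and CTL, -0.010 between UPS and CTL and 0.00072 between UPS and LB, and the medians over all genes were 0.0035, -0.0025 and -0.010. Centring each table on its all-gene median put the median of the 12 at -0.0031 between LB and CTL, so its sign there is not settled. Taking log2 of the authors' rounded linear fold put it at -0.0014 between UPS and LB, so that sign is not settled either. The median size of the ratio was 0.016, 0.028 and 0.036 in that order for the 12 genes, and 0.043, 0.051 and 0.054 for all genes. The comparisons share animals: each group enters 2 of the 3 tables, and the UPS and LB ratio of each of the 12 genes equalled the difference of its ratios against CTL to within 0.0004.

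**Figure D1:**
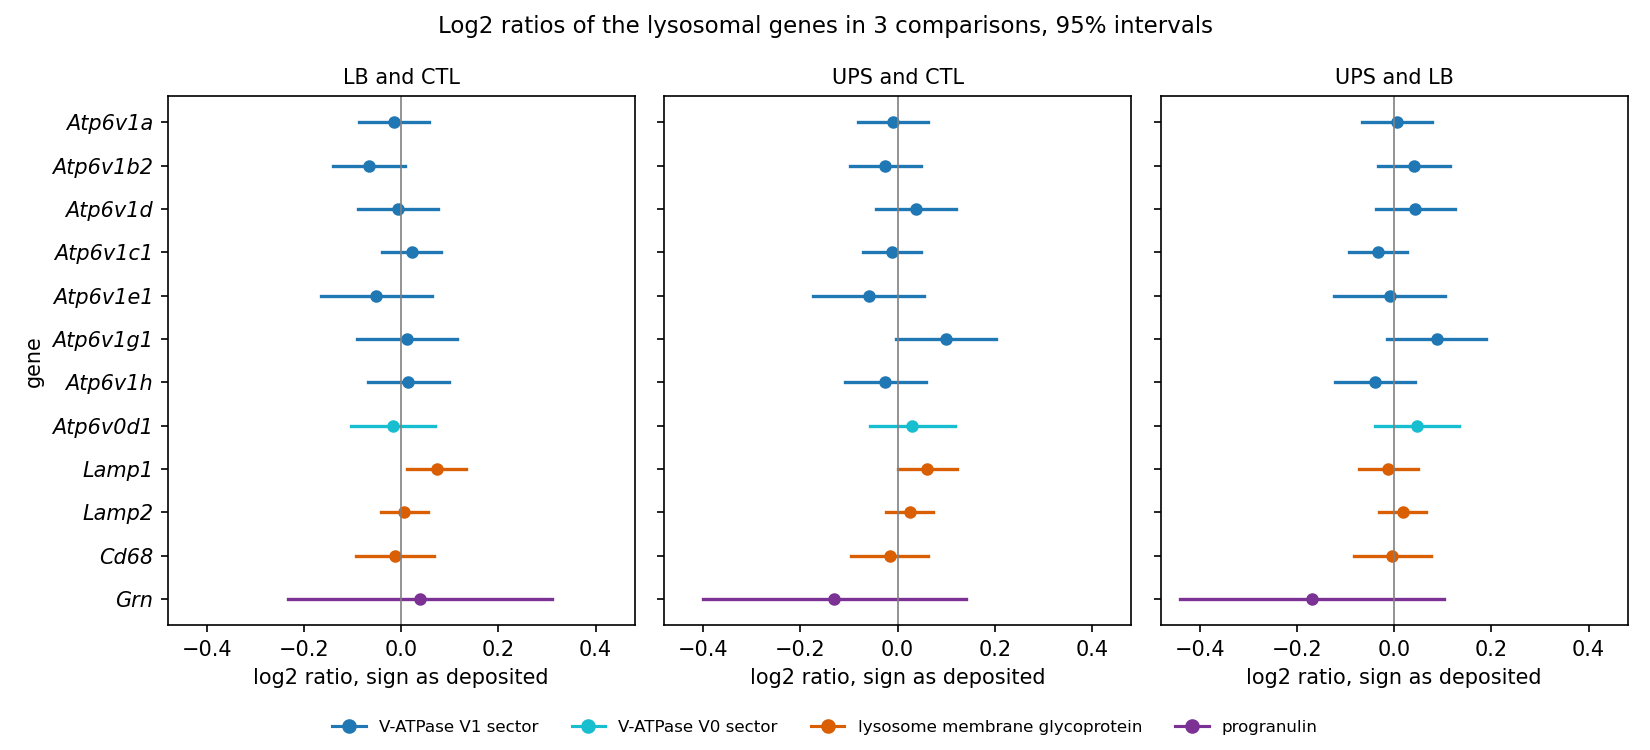
Log2 ratios (horizontal axis, sign as deposited) of the 12 genes (vertical axis, ordered by role) in 3 pairs of rearing groups, 1 panel a pair; points are the ratios of the authors' deposited tables and lines their recovered 95% intervals. Of 36 intervals, 34 include 0, and the exceptions are both of Lamp1, while Grn has by far the widest interval in each panel.

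As background, TFEB and related transcription factors coordinate lysosomal genes through a motif built around the E-box CACGTG, so its letters were looked for in the promoters. The genes were chosen by names known to be lysosomal, so the motif is not independent of that choice and its share below is a description. RefSeq promoter windows on the mouse assembly GRCm38.p6, from 250 bases before to 50 after the annotated start, were matched for 8 of the 12 genes, and 3 of the 8 contained CACGTG, against 7.15% of 32851 mouse windows and 8.68% of the 461 windows of 360 panel genes. CACGTG reads the same on both strands. These windows are shown because they hold the match: Lamp1 at chr8:13158911-13159210 on the plus strand, Atp6v0d1 at chr8:105566015-105566314 on the minus strand and Atp6v1a at chr16:44139210-44139509 on the minus strand, each written 5′ to 3′ along the gene with CACGTG in capitals.
Lamp1: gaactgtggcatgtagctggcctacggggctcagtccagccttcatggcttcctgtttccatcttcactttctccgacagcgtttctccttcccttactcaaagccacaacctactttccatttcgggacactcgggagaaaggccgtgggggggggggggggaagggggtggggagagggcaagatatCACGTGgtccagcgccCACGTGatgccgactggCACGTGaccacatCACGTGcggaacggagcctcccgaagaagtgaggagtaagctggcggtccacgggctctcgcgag
Atp6v0d1: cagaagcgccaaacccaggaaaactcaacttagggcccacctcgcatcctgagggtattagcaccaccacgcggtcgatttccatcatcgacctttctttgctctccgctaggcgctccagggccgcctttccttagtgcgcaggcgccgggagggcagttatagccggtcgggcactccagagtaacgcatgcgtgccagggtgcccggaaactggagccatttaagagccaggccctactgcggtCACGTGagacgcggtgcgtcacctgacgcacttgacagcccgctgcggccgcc
Atp6v1a: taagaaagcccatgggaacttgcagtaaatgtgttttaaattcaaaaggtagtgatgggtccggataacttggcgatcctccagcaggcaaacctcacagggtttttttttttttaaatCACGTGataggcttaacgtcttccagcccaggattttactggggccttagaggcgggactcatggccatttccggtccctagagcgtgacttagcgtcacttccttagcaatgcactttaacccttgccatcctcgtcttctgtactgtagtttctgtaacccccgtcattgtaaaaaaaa

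Lamp1 held 4 copies within 52 bases, beginning 61, 45, 28 and 15 bases before the start. A count of at least 4 was found in 8 of the 32851 windows (0.0244%), and among the panel's windows in that of Lamp1 alone. Atp6v0d1 had 1 copy across the start itself and Atp6v1a had 1 that began 131 bases upstream. The windows of Atp6v1d, Atp6v1e1, Lamp2, Cd68 and Grn had no CACGTG, which says nothing about binding elsewhere. Longer forms of the motif, each containing the shorter one and read on both strands, were rarer. TCACGTG stood in the same 3 windows (3.77% of all windows). TCACGTGA stood in those of 2 of the 8 genes, Atp6v0d1 and Atp6v1a (0.974%), and at none of the Lamp1 copies. GTCACGTG stood in those of 2, Lamp1 and Atp6v0d1 (2.25%). The short ETS-family core GGAA, also read on both strands, was in all 8 windows and in 96.0% of all windows. A match is a run of letters, factor binding was not measured here, and no link between these matches and the ratios was tested.

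**Figure D2:**
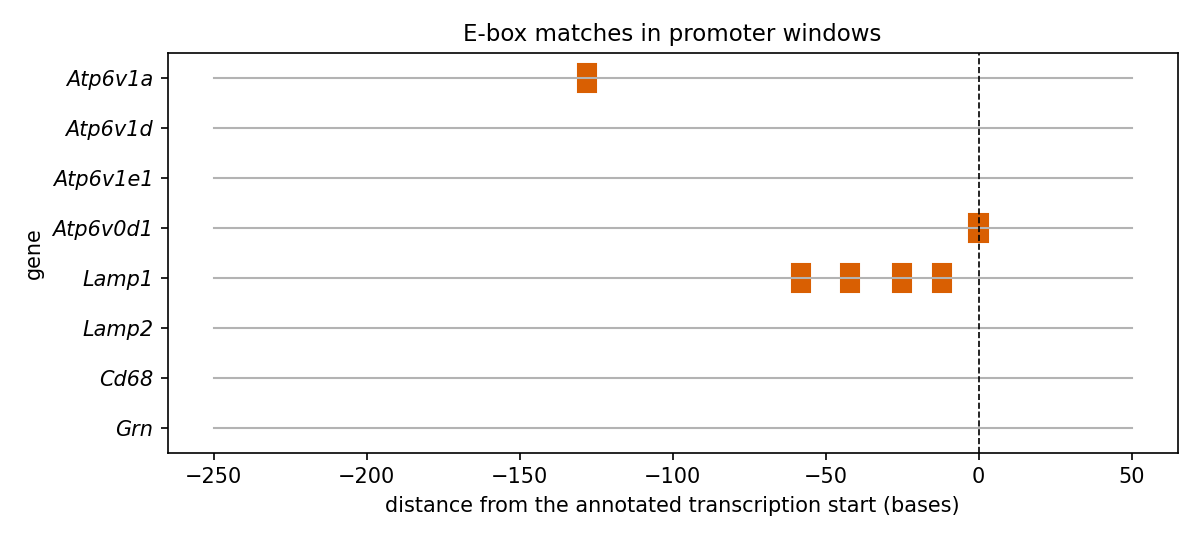
Positions of CACGTG (filled boxes, 6 bases wide) relative to the annotated transcription start (dashed line, horizontal axis in bases) in the promoter windows of 8 genes (vertical axis). Lamp1 holds 4 boxes just upstream of the start, Atp6v0d1 1 at the start and Atp6v1a 1 further upstream, and the other 5 windows hold none.

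Lamp1 had the smallest p-values of the set in both comparisons with CTL. For LB and CTL the authors' deposited table put it at 0.073 on the log2 scale, which is 1.05-fold (95% interval 0.013 to 0.13, p = 0.0191, adjusted p = 0.326 by Benjamini-Hochberg). The authors' deposited table for UPS and CTL gave 0.061, or 1.04-fold (interval 0.00046 to 0.12, p = 0.0486, adjusted p = 0.304). Both intervals only just excluded 0, and neither ratio passed. Set against each other in the authors' deposited table for UPS and LB, the stress groups gave Lamp1 a ratio of -0.012 (interval -0.073 to 0.048, p = 0.687). By p-value Lamp1 stood 28th, 74th and 384th of the 478 genes in the tables for LB and CTL, UPS and CTL, and UPS and LB. Its standard error, 0.030, was among the smaller ones of the panel, with 34 genes below it.

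Lamp2, whose A isoform is the receptor of chaperone-mediated autophagy, was the most precisely measured of the set, with a recovered standard error of 0.024 that only 5 of the 478 genes undercut. Its log2 ratios in the authors' deposited tables were 0.0065 for LB and CTL, 0.025 for UPS and CTL and 0.018 for UPS and LB, with adjusted p-values of 0.943, 0.657 and 0.712. The 95% intervals bounded a difference at 1.04-fold, 1.05-fold and 1.05-fold in either direction. The probe's position in the transcript is not given in the sources used here, so isoforms of Lamp2 cannot be told apart. Cd68 was also near 0, at -0.013, -0.016 and -0.0035 in the authors' deposited tables in the same order (adjusted p = 0.924, 0.871 and 0.980). Intervals for Cd68 reached at most 1.07-fold, 1.07-fold and 1.06-fold either way. A transcript difference in this phagocyte marker above those sizes lay outside the intervals.

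Grn stood apart by its precision. Its recovered standard error of 0.134 was 3.41 times the median of the other 11 genes, and 40 of the 478 genes had a larger one. The authors' deposited tables gave Grn log2 ratios of 0.039 for LB and CTL, -0.13 for UPS and CTL and -0.17 for UPS and LB, the largest ratios of the set in the tables with UPS. None passed (p = 0.775, 0.337 and 0.215, adjusted p = 0.943, 0.666 and 0.530). Intervals for Grn ran from -0.23 to 0.31, from -0.40 to 0.14 and from -0.44 to 0.10, so a difference of up to 1.24-fold, 1.32-fold and 1.36-fold was not excluded in those pairs. What made Grn less precise than the other lysosomal genes was not tested.

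**Figure D3:**
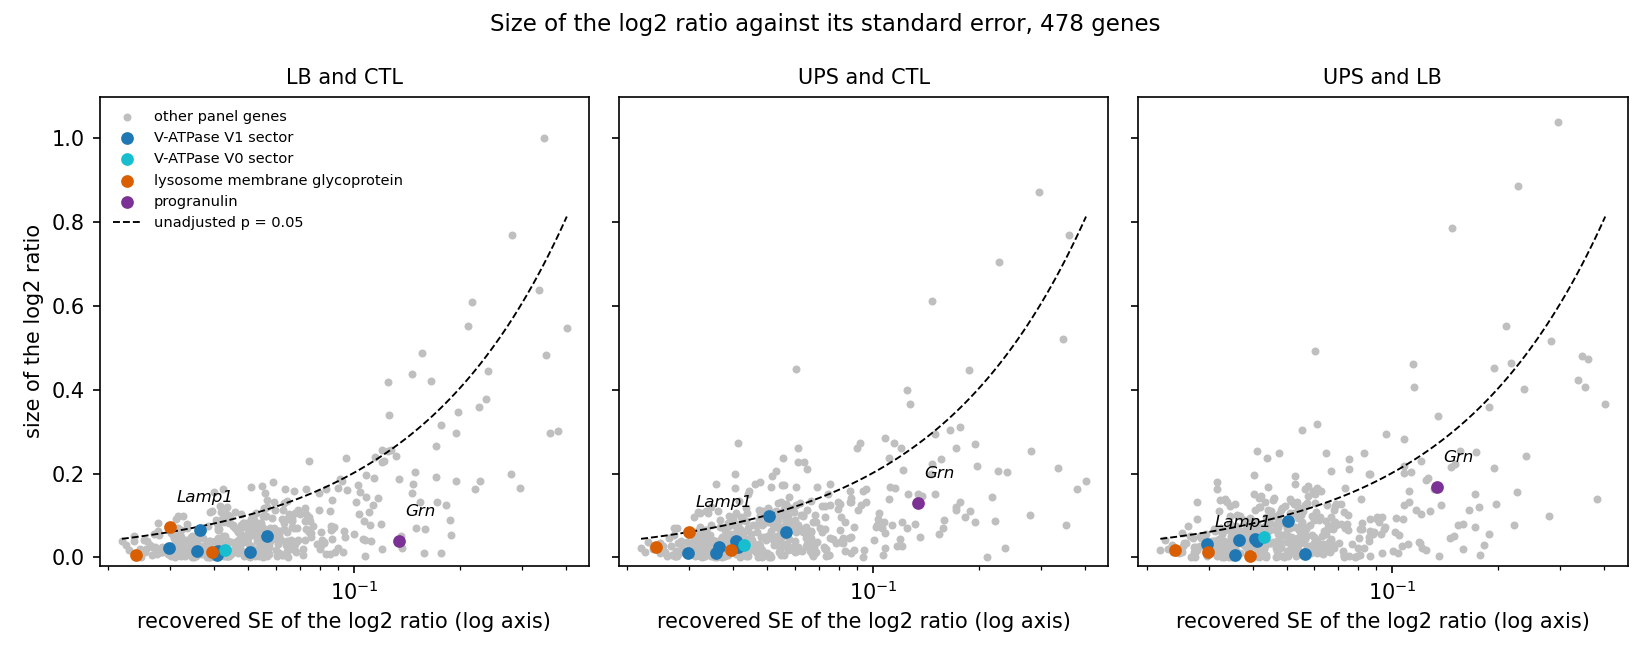
Size of the log2 ratio (vertical axis) against its recovered standard error (horizontal log axis) for the 478 genes in each pair of groups; coloured points are the 12 lysosomal genes and the dashed line marks an unadjusted p of 0.05. Lamp1 lies on or just above the line in the panels for LB and CTL and for UPS and CTL, and Grn lies to the right of the other coloured points and below the line.

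The catalytic ring of V1 is built of alternating A and B subunits, and ATP is split at the A subunits. The A subunit gene Atp6v1a was at -0.014, -0.0094 and 0.0050 on the log2 scale in the authors' deposited tables for LB and CTL, UPS and CTL, and UPS and LB (adjusted p = 0.907, 0.915 and 0.971). Its largest interval bound was 1.06-fold. Atp6v1b2, the B subunit isoform found in most tissues, was at -0.066 between LB and CTL in the authors' deposited table (interval -0.14 to 0.0075, p = 0.0769, adjusted p = 0.465), at -0.025 for UPS and CTL (adjusted p = 0.754) and at 0.041 for UPS and LB (adjusted p = 0.584). That was the largest V-ATPase ratio between LB and CTL, and its interval included 0.

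Subunit D is part of the central rotor shaft. Its gene Atp6v1d was at -0.0057, 0.038 and 0.044 in the authors' deposited tables for LB and CTL, UPS and CTL, and UPS and LB (adjusted p = 0.975, 0.666 and 0.586). The d subunit of V0 links that shaft to the membrane ring, and its gene Atp6v0d1 was at -0.017, 0.030 and 0.048 in the authors' deposited tables in the same order (adjusted p = 0.909, 0.754 and 0.586). Both rotor-linked genes were thus negative between LB and CTL and positive in the other pairs, with every interval including 0. Atp6v0d1 was the only V0 gene measured, of 9 with an Atp6v0 symbol in the RefSeq gene table, whereas 7 of 13 with an Atp6v1 symbol were measured. V-ATPase genes with other symbols are not in these counts.

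The stator holds the ring still while the shaft turns. Atp6v1g1, a subunit of the peripheral stalks, had the largest V-ATPase ratios with UPS, at 0.099 in the authors' deposited table for UPS and CTL (1.07-fold, interval -0.0025 to 0.20, p = 0.0556, adjusted p = 0.315) and 0.087 for UPS and LB (interval -0.014 to 0.19, p = 0.0907, adjusted p = 0.338). The authors' deposited table covering LB and CTL had it at 0.012 (adjusted p = 0.947). Its stalk partner Atp6v1e1 carried the opposite sign, at -0.060 between UPS and CTL and -0.0086 between UPS and LB in the authors' deposited tables, and -0.051 between LB and CTL (adjusted p = 0.644, 0.967 and 0.781). Centring each table on the median of all genes turned the Atp6v1e1 ratio between UPS and LB to 0.0016. Neither gene passed, and the difference between them was not tested.

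Subunit C bridges the stalks to V0 and is released when the pump is taken apart, and subunit H restrains ATP hydrolysis by free V1. Atp6v1c1 was at 0.022, -0.011 and -0.033 in the authors' deposited tables for LB and CTL, UPS and CTL, and UPS and LB (adjusted p = 0.799, 0.877 and 0.586), and Atp6v1h at 0.014, -0.025 and -0.040 (adjusted p = 0.921, 0.792 and 0.639). Over the 8 subunits 3 ratios were positive between LB and CTL, 3 between UPS and CTL and 5 between UPS and LB, and the median log2 ratios were -0.010, -0.010 and 0.023. The subunits of the pump therefore did not share a sign in any pair, as shown in the plot of ratios by gene.

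The size of ratio that matches a given p follows from each standard error. In the tables with UPS it is given at the largest p that passed. The Benjamini-Hochberg limit for 1 further gene lies somewhat above that p, so a slightly smaller ratio could also have passed. Between UPS and CTL the largest p that passed was 0.00222, which corresponds to 1.06-fold for Lamp2, 1.07-fold for Lamp1 and 1.35-fold for Grn. For UPS and LB the largest passing p of 0.00212 gives 1.06-fold, 1.07-fold and 1.36-fold for the same genes. No gene passed between LB and CTL, where the first gene to pass would need a p of 0.000105, or 1.07-fold, 1.09-fold and 1.49-fold for Lamp2, Lamp1 and Grn. Of the 12 genes 9 had a standard error below the panel's median of 0.050.

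Genes whose ratios, each divided by its standard error, lay nearest to those of Lamp1 over the 3 tables were Gnb1 (distance 0.153 standard errors), Tnf (0.355) and Gas6 (0.472). With only 2 of the 3 ratios free to vary, this likeness is a description of these tables. Gnb1, a G protein beta subunit, was at 0.080, 0.064 and -0.016 in the authors' deposited tables for LB and CTL, UPS and CTL, and UPS and LB. Tnf, the inflammatory cytokine, was at 0.42, 0.31 and -0.11 in the authors' deposited tables with a standard error of 0.165, and Gas6, a bridging ligand of apoptotic cells, at 0.13, 0.11 and -0.021. None of them passed in any table.

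The remaining lysosomal machinery on the panel was sampled unevenly, and none of it passed in any pair. Of all genes 0% passed between LB and CTL, 4.81% between UPS and CTL and 6.28% between UPS and LB. Of 33 further lysosomal membrane and transport genes, 30 genes of lysosome biogenesis and sorting, and 10 further V-ATPase genes looked for, 0 were measured, so these lists add no gene to the 12. Lysosomal proteases and their inhibitor cystatin C gave 7 measured genes, of which 0 passed in any table, while 2 had an unadjusted p below 0.05 between LB and CTL, 1 between UPS and CTL and 1 between UPS and LB, beside 11.7%, 16.3% and 18.8% of all genes. The aspartic protease Ctsd was at -0.12 for LB and CTL (p = 0.00551, adjusted p = 0.198), -0.0015 for UPS and CTL (adjusted p = 0.988) and 0.12 for UPS and LB (p = 0.00607, adjusted p = 0.0725) in the authors' deposited tables. The cysteine protease Ctss was at -0.15, -0.12 and 0.037 for the same pairs in the authors' deposited tables (adjusted p = 0.209, 0.298 and 0.751). The median ratio of these 7 genes was -0.013 between LB and CTL, -0.0015 between UPS and CTL and 0.037 between UPS and LB.

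Of 5 other measured hydrolases and activators 0 passed, and 0 had an unadjusted p below 0.05 in any table. Of all genes 0%, 4.81% and 6.28% passed between LB and CTL, UPS and CTL, and UPS and LB. The shares at an unadjusted p below 0.05 were 11.7%, 16.3% and 18.8%. With so few genes, counts of 0 do not set them apart from the panel. The lysozyme gene Lyz2 was at -0.11, -0.12 and -0.0034 in the authors' deposited tables for LB and CTL, UPS and CTL, and UPS and LB (adjusted p = 0.569, 0.460 and 0.994). The kinase complex mTORC1 is activated on the lysosome surface, where the V-ATPase takes part in its nutrient sensing. Its catalytic subunit Mtor was at -0.0060, 0.11 and 0.12 in the authors' deposited tables (adjusted p = 0.980, 0.238 and 0.153), and Ulk1, the autophagy kinase it restrains, at 0.055, 0.088 and 0.034 (adjusted p = 0.781, 0.453 and 0.797). None of the 4 measured genes of that list passed, and Mtor alone had an unadjusted p below 0.05, in both tables with UPS. The shares of all genes given for the hydrolases are those to set beside these counts.

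Autophagosomes deliver their cargo to the lysosome. Among 6 measured genes of their formation and fusion 0 passed. Of all genes 0%, 4.81% and 6.28% passed between LB and CTL, UPS and CTL, and UPS and LB. An unadjusted p below 0.05 was reached by 11.7%, 16.3% and 18.8% of all genes in that order. Atg5, which takes part in lipidating LC3, was the only one with an unadjusted p below 0.05, in both tables with UPS, and stood at -0.0086, -0.11 and -0.10 in the authors' deposited tables for LB and CTL, UPS and CTL, and UPS and LB (adjusted p = 0.947, 0.0645 and 0.0809). Gabarapl1, an LC3 relative on the autophagosome membrane, was at -0.097, -0.077 and 0.020 in the authors' deposited tables (adjusted p = 0.446, 0.450 and 0.862). Beside Lamp2, the chaperone-mediated autophagy list held Hsp90ab1, a cytosolic chaperone, at -0.086, 0.13 and 0.21 in the authors' deposited tables (adjusted p = 0.681, 0.404 and 0.0809). Of genes linked to progranulin biology, Trem2 was at -0.013, -0.00074 and 0.013 and its adaptor Tyrobp at 0.025, 0.037 and 0.011 in the authors' deposited tables, and neither passed in any table.

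**Figure D4:**
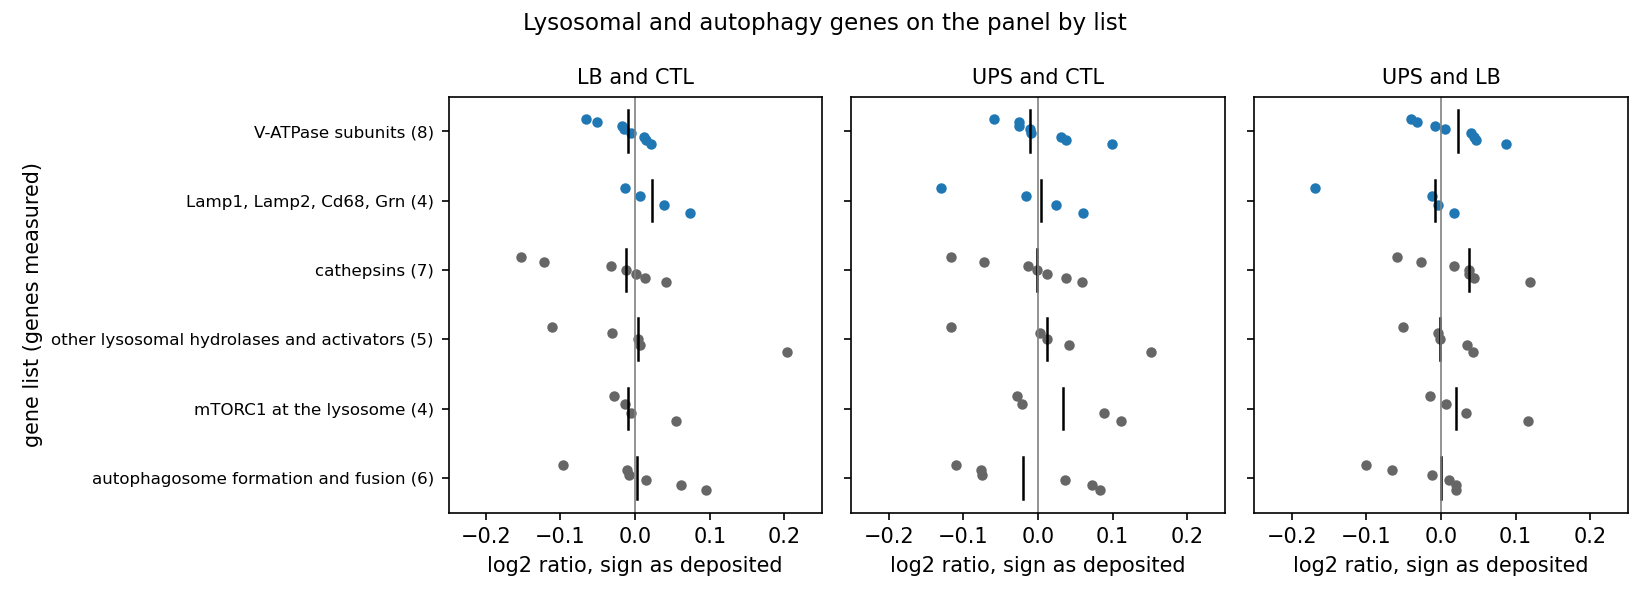
Log2 ratios (horizontal axis, sign as deposited) of single genes (points) by gene list (vertical axis, number of measured genes in brackets) in each pair of groups; black bars are medians. The V-ATPase, membrane protein and progranulin genes in blue scatter on both sides of 0 in each panel, as do the 4 other lists drawn in grey.

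All 14 microglial identity genes looked for were on the panel, but their levels were not used here and the labelled cell type could not be checked from ratios. Of these 14 genes, 5 had a positive ratio between LB and CTL, 7 between UPS and CTL and 7 between UPS and LB. Their median ratios were -0.011, 0.0040 and 0.0059. In the same order 0, 1 and 2 of the 14 passed, where 0%, 4.81% and 6.28% of all genes did. The genes that passed were Tgfbr1, a TGF-beta receptor (0.11 for UPS and CTL, adjusted p = 0.0368, and 0.18 for UPS and LB, adjusted p = 0.00018), and the surface marker Tmem119 (0.46 for UPS and LB, adjusted p = 0.00761) in the authors' deposited tables. Of 11 measured markers of other brain and blood cells, 0 passed between LB and CTL, where 0% of all genes did. In each pair with UPS 2 passed, the astrocyte transporter gene Slc1a3 and the border macrophage gene Stab1. The shares of all genes there were 4.81% (UPS and CTL) and 6.28% (UPS and LB). Of the 11 ratios, 1 was positive between LB and CTL, 6 between UPS and CTL and 9 between UPS and LB. Over all 478 genes 252, 233 and 210 were positive in the same order. Slc1a3 was at 0.21 and 0.25 (adjusted p = 0.0461 and 0.00996) and Stab1 at 0.21 and 0.20 (adjusted p = 0.0197 and 0.0146) for UPS and CTL and for UPS and LB in the authors' deposited tables. The part of these markers in the ratios of the 12 lysosomal genes was not tested.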

How the data were processed

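Transcripts of sorted hippocampal microglia from 48 pups were counted on the nCounter mouse glial panel. For each pair of rearing groups the authors deposited 1 table of 478 genes, whose columns are, per the file headers, a log2 ratio, the same ratio as a linear fold, a p-value and its Benjamini-Hochberg adjustment. Per the series text the comparisons were made with the advanced analysis of nSolver, with batch as a covariate, after an analysis of variance on genes above 20 counts. The sources used here do not give the normalization, the housekeeping genes or the version. Counts per library, and so the depth behind each value, are unknown here.

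The authors' fits were kept. Within each table their p-values were adjusted again (Benjamini-Hochberg, 478 genes), and a gene passed below 0.05. A standard error per gene was recovered from the deposited log2 ratio and two-sided p-value of the table with its smallest p, with 42 residual degrees of freedom, those of a model of 48 libraries with rearing and batch. Standard errors of a gene then differed between tables by a median of 0.145%. A model with sex added gave 0.148%, and models without batch gave 0.162% (rearing and sex) and 0.168% (rearing alone). The choice between these is not settled. Fits of 2 groups with batch gave 0.444%. Intervals are at 95%. The recovery was run on data simulated under the same model of rearing and batch, which cannot show which model the authors fitted. Gene symbols of all 12 members matched RefSeq's GRCm38.p6 gene table. The tables name no genome build.

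All 12 members are named. Of each pathway list, genes past the threshold and the 2 with the smallest p are named, and for the member with the smallest p the 3 nearest genes. A gene that this rule names is not reported here. Members, lists and motifs were chosen with earlier results of these data known. Python 3.11.15, scipy 1.17.1, pandas 2.3.3, numpy 2.4.6 and matplotlib 3.10.9 were used.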

Additional observations from a re-analysis of the deposited data

How the results depend on the processing

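The count of the 12 genes that passed was 0 in each of the 3 tables with the deposited adjusted p, with the tables adjusted together, with the Benjamini-Yekutieli adjustment, at an adjusted p below 0.1 and after centring each table on the median of all genes. At an unadjusted p below 0.05 it was 1 between LB and CTL, 1 between UPS and CTL (Lamp1 in both) and 0 between UPS and LB. Centring turned the sign of 2 ratios, both between UPS and LB and both near 0, to 0.0016 for Atp6v1e1 and 0.0067 for Cd68, by its own construction. The other 178 single-gene values under these alternatives stayed on the same side of the threshold and none changed sign, though 2 came to exactly 0 with the rounded linear fold (Lamp2 between LB and CTL, Atp6v1a between UPS and LB). Much of this was fixed in advance. The changes of adjustment reuse the deposited ratios and could not change a sign. The deposited adjusted p is the same adjustment of the same p-values, and could differ from the main one only by rounding. The linear fold keeps the adjusted p and could not change a call. The Benjamini-Yekutieli adjustment is stricter, so no further gene could pass with it. Only centring could change both sign and call. With centring the median log2 ratio of the 12 moved to -0.0031 (LB and CTL), -0.0078 (UPS and CTL) and 0.011 (UPS and LB). The linear fold moved it to -0.0029, -0.011 and -0.0014. These shifts were smaller than 0.040, the median standard error of a single gene's ratio among the 12. Even so, the sign of the median turned between LB and CTL with each of these, and between UPS and LB with the linear fold. Its sign in those pairs is not settled. The largest interval bound of the set, that of Grn between UPS and LB, was 1.36-fold either way, and 1.35-fold to 1.36-fold under the alternatives of centring, a fit of 2 groups, a normal quantile and the deposited linear fold. The fit of 2 groups and the normal quantile reuse the deposited ratio and p, so the bound could hardly move with them. The linear fold is the same ratio rounded. No paired analysis was possible because the tables hold comparisons and not libraries, and for the same reason no replicate or batch could be left out. Litter could not be taken into account, and alike littermates would widen the true intervals.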
